A study of Homo sapiens with 18 samples.

Results

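Holoclone cells of the pancreatic cancer line Panc89 were compared with the parental Panc89 cells over all genes. The comparison takes 6 of the 18 libraries of the series, 3 of Panc89 Holoclone cells and 3 of parental Panc89 cells, and the libraries were chosen by their labels alone. Panc89 is an established human line grown from a lymph node metastasis of a pancreatic ductal adenocarcinoma (PDAC), and it served as the epithelial model of the study. The parental group is the uncloned line, a mixed population of cells. The Holoclone group descends from a single parental cell that was placed alone in a well and kept because its colony had the Holoclone shape. The sources name no treatment, transgene or engineered allele for either group, and all groups grew in RPMI medium with foetal calf serum. The 3 libraries of a group are 3 passages of it, so p-values measure the spread between passages, which may be technical. All 3 Holoclone libraries come from 1 clone, so that what belongs to Holoclone cells and what belongs to this clone cannot be told apart. Values of Panc89 Paraclone cells, a clone with the opposite colony shape, and of parental and Holoclone cells of Panc1, a mesenchymal-like line from a primary PDAC, stand beside the results where a comparison needs them.

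Holoclones and Paraclones are names for the shapes of colonies that grow from single cells. Holoclone colonies are compact and made of small, closely packed cells that renew themselves for long, while Paraclone colonies are loose and made of flat, scattered cells, and in carcinoma lines the Holoclone shape has been used to find cells with stem cell traits. PDAC cells of the epithelial kind carry keratins, junction proteins and surface mucins of the duct. In epithelial-mesenchymal transition (EMT), repressors such as *ZEB1* and *SNAI1* switch such genes off, and factors such as *OVOL2* oppose them.

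The level of each gene was given as TPM, a transcript share, which is scaled for gene length and library depth, and the number of reads behind it is unknown. Between 13480 and 14199 genes reached 1 TPM in the 6 libraries, and transcripts of the mitochondrial genome made up 5.62 to 8.50% of the total. Across genes, the log2(TPM + 1) values of parental libraries correlated with r of 0.985 to 0.992, those of Holoclone libraries with 0.962 to 0.989, and those of a parental and a Holoclone library with 0.941 to 0.953. The median SD of a gene over the 3 libraries was 0.13 in the parental and 0.22 in the Holoclone group on the log2 scale. Holoclone 1 stood apart from Holoclone 2 and Holoclone 3. Its S phase genes had a median of 0.89 relative to the mean of the 6 libraries, against −0.18 and −0.87, and its G2/M genes 0.81 against −0.31 and −0.58. Parental 2 stood apart from the other two parental libraries in interferon-stimulated and complement genes, as given with those genes.

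The epithelial identity of both groups was read from 10 markers, all of which reached 1 TPM. Their summed level was 6418 to 6752 TPM in parental and 5066 to 5581 TPM in Holoclone libraries, with 3 lower, namely *KRT8*, *KRT18* and *CLDN4*. Most markers of other cell types were at or near 0. Of 6 endocrine markers none reached 1 TPM, and *INS*, *GCG*, *SST* and *PPY* were listed at 0 in every library. Of 6 acinar markers 2 reached 1 TPM, with *CPA1* and *CELA3A* at 0, and their sum was 11.9 to 18.8 TPM in parental and 33.0 to 47.9 TPM in Holoclone cells. Of 8 fibroblast markers 2 reached 1 TPM, with sums of 20.6 to 27.4 and 10.2 to 21.8 TPM. Of 6 leukocyte markers 1 did, with sums of 4.82 to 6.11 and 0.858 to 1.23 TPM, and of 6 endothelial markers 3 did, with sums of 148 to 162 and 71.9 to 77.0 TPM. The members of these lists that passed the test were *COL1A1*, *CD14*, *PECAM1* and *CDH5*, all lower, and *CEL*, which was higher. Apart from *PECAM1* they were named after their values were seen. The groups overlapped for *COL1A1*, and its call was lost in 6 of 15 alternatives. What part these markers have in the results was not tested. In bulk RNA, fewer cells that express a gene and less of its RNA in each cell cannot be told apart.

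Panc89 Holoclone cells differed from parental cells in 3981 of 16093 genes tested, which is 24.7%. In Holoclone cells 2595 genes were higher, 16.1% of those tested, and 1386 were lower, 8.61%. These shares are the background for the counts of called members in each gene list below. The larger changes were mostly losses. Of the genes past a log2 fold change of 3 in either direction, 13 were higher and 59 were lower, whereas past 1 there were 753 higher and 616 lower. The median size of the change was 0.76 among the higher and 0.93 among the lower genes. The test was limma on log2(TPM + 1), with Benjamini-Hochberg adjustment over all genes tested and a threshold of 0.05 on the adjusted p. Fold changes are Holoclone minus parental on that scale, which understates the change of genes with few TPM. With each library rescaled by its upper quartile, the split was nearly even, at 1930 higher and 1894 lower (50.5% higher, against 65.2%). Median-of-ratios scaling gave 1965 and 1886 (51.0%). Without Holoclone 1 the split was 2447 and 1872, a smaller excess of higher genes. The background shares of higher and lower genes therefore depend on the scaling.

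**Figure D1:**
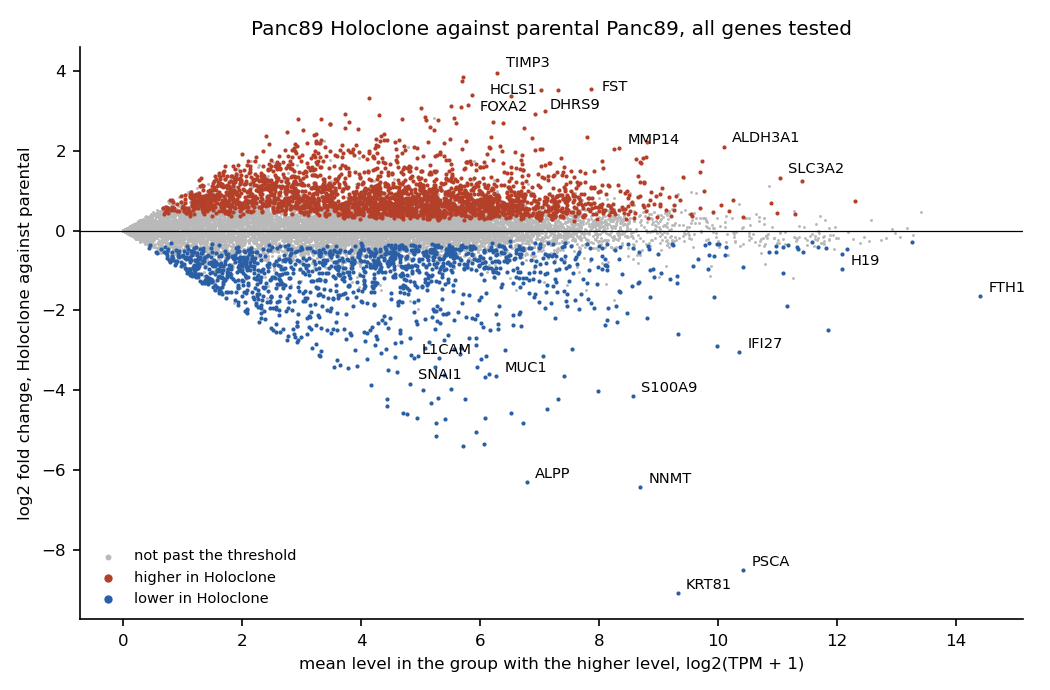
Each point is 1 of the 16093 genes tested, with its mean level in the group with the higher level on the x axis, as log2(TPM + 1), and its log2 fold change of Panc89 Holoclone against parental cells on the y axis. Red points (2595) passed the test as higher and blue points (1386) as lower, and the blue points reach −9.07 while the red ones reach 3.94.

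The 12 genes that rose most in Holoclone cells were of many kinds. The rule that chose them required groups without overlap, so their separation carries no weight of its own. *TIMP3*, an inhibitor of matrix metalloproteinases that binds to the extracellular matrix (chromosome 22, bases 32801705 to 32863041 of GRCh38), had 4.83, 3.01 and 4.51 TPM in parental 1 to 3 and 75.6, 86.9 and 68.4 TPM in Holoclone 1 to 3. The groups were far apart and the libraries within each close together, and *TIMP3* rose (log2 fold change 3.94, SE 0.14, adjusted p = 3.48e-11). In Paraclone cells it was near 0, at 0.00879, 0.00552 and 0.0144 TPM. *FST* codes for follistatin, a secreted antagonist of activin, and lies on chromosome 5, bases 53480626 to 53487134. Its level was 14.2, 26.1 and 17.8 TPM in parental and 205, 222 and 271 TPM in Holoclone cells (log2 fold change 3.55, SE 0.35, adjusted p = 2.43e-06), with no overlap, and the Paraclone libraries lay between at 84.6, 21 and 50.7 TPM. *FOXA2*, a forkhead transcription factor of endoderm and pancreas, had 3.66, 5.17 and 4.17 TPM in parental and 37, 62.3 and 71.3 TPM in Holoclone cells (log2 fold change 3.40, SE 0.20, adjusted p = 1.30e-08). All 3 Holoclone values of *FOXA2* were above every parental value, and Paraclone cells had 1.30, 0.783 and 1.14 TPM.

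*HCLS1*, an actin-binding protein best known from blood cells, was even over the libraries, with 11.7, 15.3 and 12 TPM in parental and 168, 146 and 160.1 TPM in Holoclone cells (log2 fold change 3.51, SE 0.15, adjusted p = 2.86e-10). Its Paraclone values were below 1 TPM. *DHRS9*, a dehydrogenase that acts on retinol, had 6.27, 15.3 and 8.48 TPM in parental and 201, 118 and 69.2 TPM in Holoclone libraries (log2 fold change 3.52, SE 0.34, adjusted p = 2.37e-06), with Holoclone 1 highest. *SLITRK6*, a leucine-rich membrane protein of neurons, had 5.85, 5.65 and 7.18 TPM and 27, 95.6 and 149 TPM (log2 fold change 3.36, SE 0.44, adjusted p = 4.74e-05), here with Holoclone 1 lowest. *FAR2*, a fatty acyl-CoA reductase, was below 1 TPM in each parental library and reached 12.1, 13.8 and 23.7 TPM in Holoclone cells (log2 fold change 3.33, SE 0.23, adjusted p = 5.43e-08). It was the only gene under 1 TPM in every parental and at 10 TPM or more in every Holoclone library.

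The other 5 of the 12 genes with the largest rise were *ABCA10* (3.10), a transporter of the ABC family, the long noncoding RNAs *LINC00589* (3.75) and *LINC00326* (3.10), *RPLP0P2* (3.85) and *OSCAR* (3.15). *RPLP0P2* is a pseudogene of a ribosomal protein whose reads may be shared with its parent gene. It rose unevenly, with 4.22, 44.6 and 104 TPM in Holoclone 1 to 3, and its adjusted p was 0.0609 in a fit of the 6 libraries alone. *OSCAR*, an immunoglobulin-like receptor of osteoclasts, was as uneven, with 6.05, 58.6 and 98.8 TPM in Holoclone 1 to 3 against 2.83, 3.25 and 2.71 TPM in parental cells, and its call was lost in 4 of 15 alternatives, with an adjusted p of 0.0841 over the 9 Panc89 libraries.

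Genes that were abundant in parental cells and nearly absent in Holoclone cells made up the other end. *KRT81*, a hair keratin (chromosome 12, bases 52285913 to 52291534), had 547, 817 and 547 TPM in parental and 0.155, 0.279 and 0.0595 TPM in Holoclone libraries (log2 fold change −9.07, SE 0.25, adjusted p = 1.56e-12). Every Holoclone value was under 1 TPM, and the Paraclone values were again high, at 1149, 700.5 and 1087 TPM. *KRT81* has close paralogs among the hair keratins, so that the division of reads among them is uncertain. *PSCA*, prostate stem cell antigen, a surface protein of the LY6 family, fell from 1249, 1464 and 1375 TPM to 3.66, 2.48 and 2.23 TPM (log2 fold change −8.51, SE 0.23, adjusted p = 1.11e-12), with 803, 788 and 1496 TPM in Paraclone cells. *NNMT*, the enzyme that methylates nicotinamide (chromosome 11, bases 114257787 to 114313536), had 439, 375 and 424 TPM in parental, 3.08, 4.35 and 4.13 TPM in Holoclone and 178, 252 and 234 TPM in Paraclone libraries (log2 fold change −6.42, SE 0.31, adjusted p = 1.15e-09). The rule that chose these genes also required groups without overlap, so their separation followed from it.

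*ALPP*, placental alkaline phosphatase, had 101, 132 and 94.3 TPM in parental and 0.975, 0.192 and 0.107 TPM in Holoclone cells (log2 fold change −6.31, SE 0.32, adjusted p = 2.05e-09), and its near copy *ALPG* 63.7, 73 and 60.9 and 1.38, 0.374 and 0.339 TPM (log2 fold change −5.35, SE 0.29, adjusted p = 3.52e-09). The 2 genes are so alike that reads of one may count for the other. *PECAM1*, an adhesion molecule best known from endothelial cells and platelets (chromosome 17, bases 64319415 to 64413776), had 64.7, 53.2 and 62.5 TPM in parental and 1.25, 0.752 and 0.565 TPM in Holoclone cells (log2 fold change −5.05, SE 0.26, adjusted p = 1.90e-09). Of the other endothelial markers, *VWF* and *KDR* stayed below 1 TPM in all 6 libraries, *CDH5* fell from 4.28, 1.99 and 5.07 TPM to 0.551, 0.278 and 0.349 TPM (−1.72, adjusted p = 2.47e-05), and *EGFL7*, also named after its values were seen, had 78.5, 106.3 and 85.3 TPM and 69.5, 75.3 and 70.8 TPM and did not pass the test. The Paraclone cells were low for *PECAM1* too, with 1.92, 6.90 and 4.80 TPM.

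The remaining genes of the 12 with the largest fall were *ATP6V1B1* (−5.38), a subunit of the proton pump of acid-secreting cells, *SLURP2* (−5.13), a secreted LY6 protein, *MUC5B* (−4.83), a gel-forming mucin, *CD70* (−4.82), a ligand of the TNF family, *FZD10* (−4.71), a WNT receptor, and *CYP24A1* (−4.69), the enzyme that inactivates vitamin D. *FZD10* went from 43.4, 41.5 and 39.5 TPM in parental to 0.576, 0.522 and 0.786 TPM in Holoclone cells, and Paraclone cells were at or near 0 as well. In all, 15 genes had 10 TPM or more in every parental and under 1 TPM in every Holoclone library. Groups without overlap were common, at 41.2% of the genes tested. Of the 15, *RNF212*, *DAPK1*, *SUSD2*, *CSGALNACT1* and *SELPLG* belong to none of the lists and were named after their values were seen. *RNF212* had 21.9, 19.5 and 20.6 TPM in parental, 0.0963, 0 and 0 TPM in Holoclone and 67.4, 58.7 and 63.8 TPM in Paraclone libraries.

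**Figure D2:**
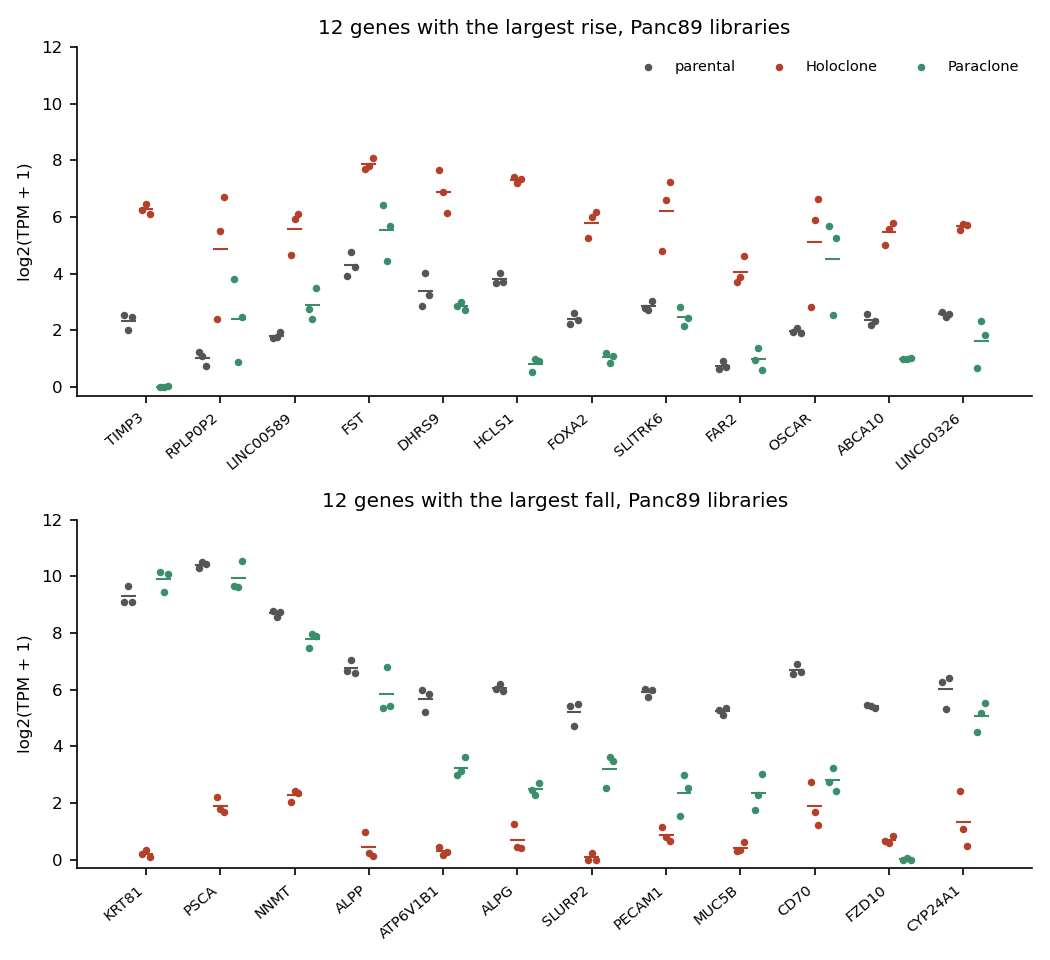
Points are the log2(TPM + 1) values of single Panc89 libraries for the 12 genes with the largest rise (top) and the 12 with the largest fall (bottom) in Holoclone against parental cells, and lines are means of 3 libraries. Parental and Holoclone points do not overlap for any of the 24 genes, as the rule that chose them required, and the Paraclone points of *KRT81*, *PSCA*, *NNMT* and *ALPP* lie far above the Holoclone points.

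The study used a set of stemness and EMT markers to tell the cell variants apart, and few of them differed in this comparison. *NES*, a filament protein of neural progenitors, was low, with 0.661, 0.598 and 0.650 TPM in parental and 1.40, 0.257 and 0.109 TPM in Holoclone libraries, and did not pass the test (log2 fold change −0.13, SE 0.28, adjusted p = 0.817). *SOX2*, a transcription factor of pluripotent cells, had 30.7, 18.1 and 32.9 TPM and 64.3, 32.5 and 17.3 TPM, the 2 groups overlapping (log2 fold change 0.32, SE 0.34, adjusted p = 0.554). The Paraclone libraries were low for *SOX2*, at 0.252, 0.909 and 0.981 TPM. *CDH1*, the cadherin of epithelial junctions, had 73.3, 77.9 and 74.7 TPM in parental and 90.03, 88.7 and 107 TPM in Holoclone cells, higher in each Holoclone library but not past the test (log2 fold change 0.33, SE 0.19, adjusted p = 0.236). Groups without overlap were common, at 41.2% of all genes tested.

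*OVOL2* and *L1CAM* were the members of the marker set that changed. *OVOL2*, a factor that holds cells in the epithelial state, fell from 7.20, 9.16 and 9.43 TPM to 1.99, 2.90 and 2.73 TPM (log2 fold change −1.44, SE 0.16, adjusted p = 1.04e-05) and had 11.9, 12.5 and 12.3 TPM in Paraclone cells. *L1CAM*, an adhesion molecule of neurons that is found in invasive carcinomas, fell from 25.3, 34.3 and 25.5 TPM to 2.80, 1.98 and 1.90 TPM (log2 fold change −3.19, SE 0.26, adjusted p = 3.97e-07). Neither had a Holoclone value within the parental range, which held for 41.2% of all genes tested. *VIM* and *ZEB1* were under 1 TPM in every parental and Holoclone library, and so was *ZEB2*, and none of them passed the test.

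Of the whole list of EMT factors and their opponents, 18 were tested, of which 4 rose, 3 fell and 11 did not pass the test (median log2 fold change 0.20). *SNAI1*, a repressor of *CDH1*, fell from 25.5, 30.3 and 25.4 TPM to 0.935, 0.857 and 1.11 TPM (log2 fold change −3.83, SE 0.18, adjusted p = 8.59e-10), while its relative *SNAI2* rose from 11.7, 7.81 and 11.7 TPM to 27.3, 20.9 and 20.8 TPM (log2 fold change 1.08, SE 0.17, adjusted p = 2.47e-04). *EHF*, an epithelial ETS factor, rose (1.26, adjusted p = 7.55e-05) and *OVOL1* fell (−0.77, adjusted p = 0.00113). The 2 Snail factors thus had opposite directions, with no overlap between the groups in either. Groups did not overlap in 41.2% of all genes tested. Of 47 mesenchymal genes 12 rose, 11 fell and 24 did not pass the test (median log2 fold change 0.04), and 5, 4 and 5 rose without parental 1, parental 3 and Holoclone 1. *CDH11*, a mesenchymal cadherin, and *FSTL1*, a follistatin-like protein, rose to 11.2, 3.41 and 5.52 and 36, 14.9 and 14.5 TPM from 1.01, 0.854 and 1.08 and 8.09, 6.18 and 5.95 TPM, and Holoclone 1 was highest in both. *LOX*, which crosslinks collagen, and *S100A4*, a calcium-binding protein of motile cells, fell, *LOX* from 27.2, 14 and 27.2 to 1.80, 1.97 and 3.04 TPM and *S100A4* from 34.6, 58.8 and 34.9 to 8.89, 5.73 and 4.09 TPM. In a fit of the 9 Panc89 libraries alone, 4 mesenchymal genes were higher and 9 lower. Of 41 junction genes 13 rose (31.7%, against 16.1% of all genes), 6 fell (14.6%, against 8.61%) and 22 did not pass the test. Their median log2 fold change was 0.15, and 3 fell without parental 1. They included the desmosomal cadherin *DSG3* (1.87, adjusted p = 8.79e-05), the plaque protein *PPL* (1.21, adjusted p = 6.71e-04) and the catenin *CTNND1* (0.99, adjusted p = 3.24e-05) among the risers, and *CLDN4* (−1.52, adjusted p = 0.00197), a tight junction claudin, among those that fell.

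Keratins that passed the test were all lower. Of 19 tested, 0 rose, 7 fell and 12 did not pass the test (median log2 fold change −0.63). That is 36.8% lower, against 8.61% of all genes, and none higher, against 16.1%. At an unadjusted p under 0.05 in limma, 2 were higher and 10 lower. *KRT23* fell from 22.8, 21.4 and 28 TPM to 3.58, 3.02 and 3.76 TPM (log2 fold change −2.49, SE 0.20, adjusted p = 2.88e-07). The pair that marks simple epithelia, *KRT8* and *KRT18*, was far more abundant. *KRT8* went from 775, 729 and 781 to 463, 391 and 378 TPM (−0.90, adjusted p = 0.0195) and *KRT18* from 1131, 1102 and 1077 to 622, 768 and 804 TPM (−0.60, adjusted p = 0.0296). Both were without overlap, like 41.2% of all genes tested. These calls were lost in 4 and 7 of 15 alternatives, among them the fit without Holoclone 3 for *KRT8* (adjusted p = 0.0643) and without Holoclone 1 for *KRT18* (adjusted p = 0.0976).

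The mucins, trefoil factors and CEACAM genes, which coat and protect gut and duct epithelium, were lower as a list. Of 21 tested, 1 rose, 11 fell and 9 did not pass the test (median log2 fold change −0.75), so that 52.4% fell against 8.61% of all genes. The median ranged from −1.27 to −0.19 over 15 alternatives. Their summed level was 636, 567 and 669 TPM in parental and 399, 386 and 335 TPM in Holoclone libraries. The transmembrane mucin *MUC1* fell from 82.4, 55.3 and 90.7 TPM to 5.73, 4.88 and 4.44 TPM (log2 fold change −3.65, SE 0.18, adjusted p = 1.58e-09), and *MUC16* from 14.5, 12 and 15 TPM to 1.53, 0.552 and 0.615 TPM (log2 fold change −3.00, SE 0.19, adjusted p = 2.40e-08). *CEACAM5*, carcinoembryonic antigen, was the member that rose, from 5.22, 5.85 and 8.52 TPM to 29.9, 40.02 and 31.1 TPM (log2 fold change 2.22, SE 0.67, adjusted p = 0.0245), and its call was lost in 6 of 15 alternatives. Paraclone libraries 1 and 3 were far higher still, with 280.4, 15.3 and 178 TPM in Paraclone 1 to 3.

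The LY6 family of small surface proteins, to which *PSCA* and *SLURP2* belong, was lower too. Of 15 tested, 1 rose, 8 fell and 6 did not pass the test (median log2 fold change −0.88). That is 6.67% higher and 53.3% lower, against 16.1% and 8.61% of all genes. *LYPD2* fell from 24.2, 11.5 and 26 TPM to 0.141, 0.151 and 0 TPM (−4.22, adjusted p = 2.72e-09) and *LYPD1* rose from 0.267, 0.394 and 0.169 TPM to 2.81, 4.43 and 2.64 TPM (1.73, adjusted p = 7.29e-07). *LY6D* was abundant and spread widely, with 519, 283 and 179 TPM in Holoclone 1 to 3, and did not pass the test (−0.88, adjusted p = 0.198). Many of these genes lie side by side in the genome, so they are not independent. Of 14 S100 calcium-binding proteins 1 rose, 5 fell and 8 did not pass the test (median log2 fold change −0.24), and 3 and 3 fell without parental 2 and Holoclone 3. Their shares were 7.14% higher and 35.7% lower, against the same shares over all genes. *S100A8* and *S100A9*, the subunits of calprotectin, fell from 25.5, 23.3 and 29.9 and 423, 333 and 377 TPM to 0.261, 0 and 0.131 and 28.4, 19.4 and 15.3 TPM. Holoclone values of both were below every parental value (−4.59, adjusted p = 3.16e-08 and −4.14, adjusted p = 7.78e-09). Groups without overlap made up 41.2% of all genes tested. *S100A2* rose (1.48, adjusted p = 0.00304), although the call was lost in a fit of the 6 libraries alone (adjusted p = 0.0659), and the abundant *S100P* did not pass the test (−1.19, adjusted p = 0.352).

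Lineage factors moved both ways. Of 19 transcription factors of pancreas and gut, 4 rose, 4 fell and 11 did not pass the test (median log2 fold change 0.12). This is 21.1% each way, where 16.1% of all genes were higher and 8.61% lower. Within the FOXA family *FOXA2* rose, while *FOXA1* fell from 14.2, 13 and 15.4 to 9.38, 4.41 and 3.37 TPM (log2 fold change −1.28, SE 0.24, adjusted p = 8.70e-04) and *FOXA3* from 1.34, 1.59 and 2.01 to 0.196, 0.179 and 0.134 TPM (log2 fold change −1.17, SE 0.13, adjusted p = 1.16e-05). *TP63*, the master factor of basal and squamous epithelium, rose from 48.9, 33.1 and 49 TPM to 127, 154 and 145 TPM (log2 fold change 1.70, SE 0.20, adjusted p = 1.42e-05) and was lower in Paraclone cells, at 10.4, 20.4 and 18.3 TPM. *SOX9*, a factor of duct and progenitor cells, fell (−1.09, adjusted p = 0.0134), with the call lost in 3 of 15 alternatives, and *PDX1* was near 0. Of 24 genes of the basal-like PDAC subtype 6 rose, 4 fell and 14 did not pass the test (median log2 fold change 0.03), and 7 fell without Holoclone 1, and of 12 of the classical subtype 3 rose, 4 fell and 5 did not pass the test (median log2 fold change −0.04). *AGR2*, a secretory pathway protein of the classical list, rose from 146, 66.9 and 157 TPM to 271, 426 and 621 TPM (1.84, adjusted p = 0.00737). *SERPINB3* of the basal-like list, a protease inhibitor with the near copy *SERPINB4*, fell from 34.1, 41.6 and 34.9 TPM to 5.04, 2.09 and 1.30 TPM (−3.43, adjusted p = 1.04e-07).

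Of 21 stem cell markers 7 rose, 2 fell and 12 did not pass the test (median log2 fold change 0.09), and 33.3% were higher against 16.1% of all genes. The ALDH1 enzymes, used to sort stem-like carcinoma cells, divided. *ALDH1A3* rose from 58.8, 102 and 62.1 TPM to 341, 335 and 233 TPM (log2 fold change 2.04, SE 0.29, adjusted p = 1.06e-04), and *ALDH1A1*, much lower, fell from 3.89, 1.52 and 3.95 TPM to 0.130, 0.176 and 0.0948 TPM (log2 fold change −1.80, SE 0.23, adjusted p = 2.88e-05). The laminin receptor subunit *ITGA6* rose (1.20, adjusted p = 1.43e-05) and so did *MET* (1.19, adjusted p = 2.22e-04), the receptor of hepatocyte growth factor. *CXCR4*, a chemokine receptor, had 3.86, 3.46 and 4.31 TPM in parental cells and was listed at 0 in each Holoclone library, and no fold is given against 0. *PROM1*, which codes for CD133, was under 1 TPM throughout.

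**Figure D3:**
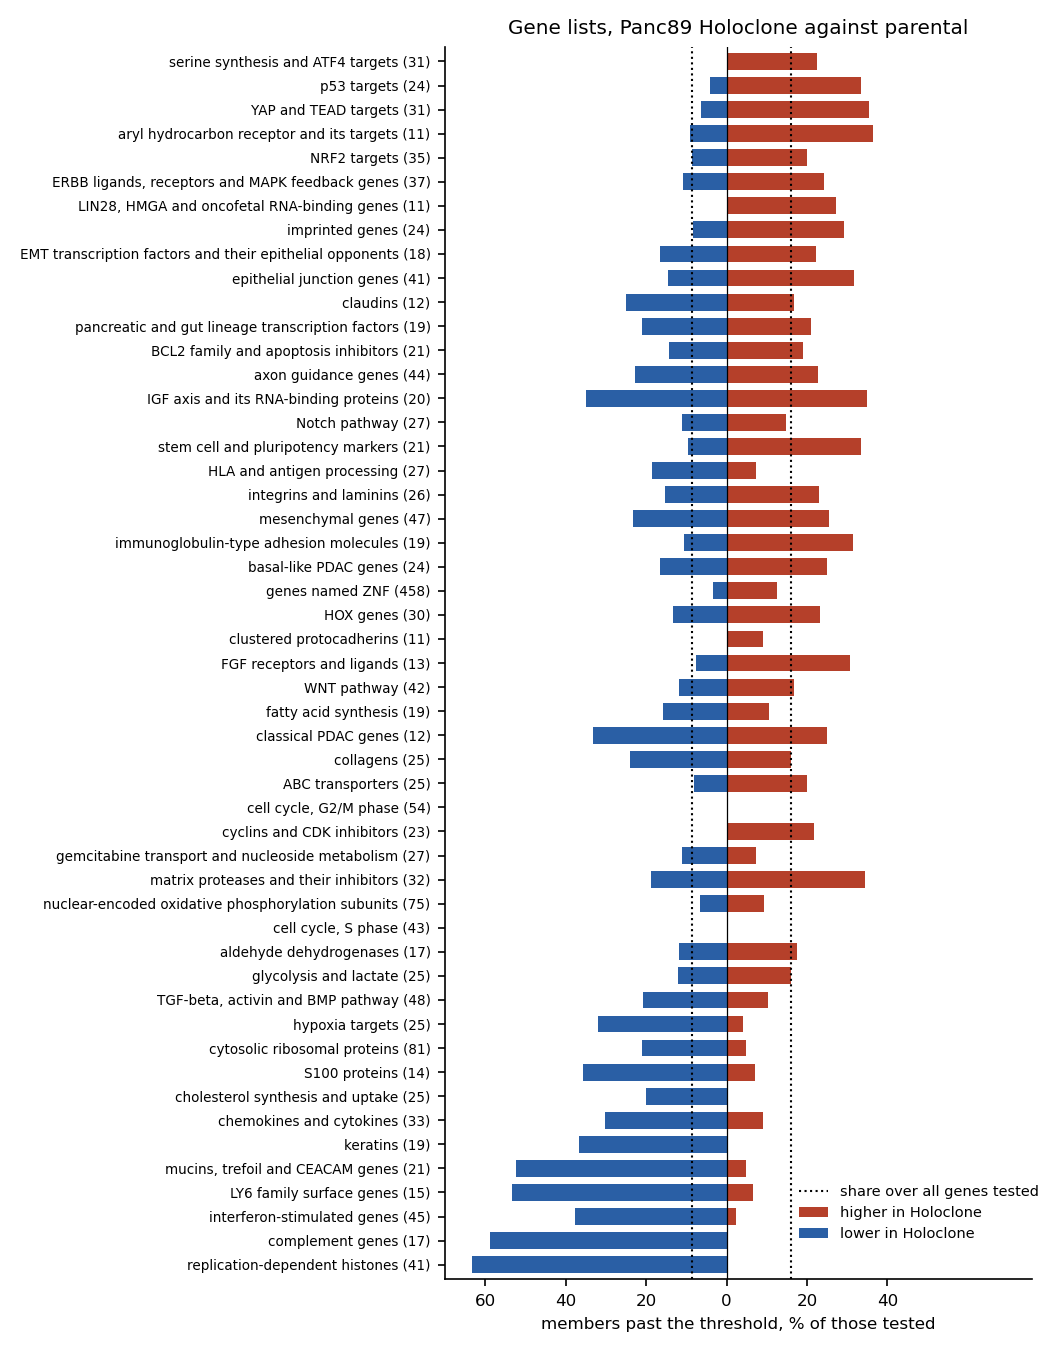
For each gene list with 11 or more tested members, bars give the percentage of tested members that were higher (red, to the right) or lower (blue, to the left) in Panc89 Holoclone than in parental cells, with the number tested in parentheses and lists ordered by their median log2 fold change. Dotted lines mark the shares over all genes, 16.1% and 8.61%, and the longest blue bars belong to replication-dependent histones (63.4%) and complement genes (58.8%).

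Interferon-stimulated genes, which cells switch on when interferon or viral RNA is sensed, were lower in Holoclone cells, and their level differed widely between passages. Of 45 tested, 1 rose, 17 fell and 27 did not pass the test (median log2 fold change −0.90), and 40 had a negative fold change. The share that fell was 37.8%, against 8.61% of all genes. Relative to the mean of the 6 libraries, the median of the list was 0.85, −0.17 and 0.70 in parental 1 to 3 and −1.13, −0.64 and 0.28 in Holoclone 1 to 3, so that parental 2 lay below Holoclone 3. The summed level was 21762, 13313 and 20032 TPM in parental and 5841, 7797 and 12380.2 TPM in Holoclone libraries, without overlap, and 8603, 17351 and 15709.8 TPM in Paraclone libraries. Between 9 and 23 members were lower when 1 library was left out, with 9 without any one of parental 1, parental 3, Holoclone 1 and Holoclone 2, 20 without parental 2 and 23 without Holoclone 3. In a fit of the 6 libraries alone 7 were lower.

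The promoters of these genes are shown because a short motif in them is the part that interferon-activated factors bind. The motif searched was GAAANNGAAA, or TTTCNNTTTC on the other strand, the core of the interferon-stimulated response element, in the 250 bases before and 50 bases after each start in RefSeq (GRCh38.p14), with overlapping matches counted. Of 34 tested members with a promoter there 23 held it, which is 67.6%, against 3.97% of the promoters of all genes tested and 3.57% of all promoters. Among the members that fell 8 of 12 held it (66.7%), and among those that did not pass the test 15 of 21 (71.4%). The stretch around the matches is given for *IFI27*, *IFI6* and *IFIT1*, in lower case with the matches in capitals.
IFI27 (chr14:94110613-94110665, + strand): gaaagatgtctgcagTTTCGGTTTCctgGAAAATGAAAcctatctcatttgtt
IFI6 (chr1:27672261-27672363, − strand): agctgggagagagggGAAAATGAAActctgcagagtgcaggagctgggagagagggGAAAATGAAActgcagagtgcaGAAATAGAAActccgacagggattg
IFIT1 (chr10:89392492-89392544, + strand): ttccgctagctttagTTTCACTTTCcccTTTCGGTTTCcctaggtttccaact

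*XAF1*, *IFI27* and *IFI6* fell most among the interferon-stimulated genes. *IFI27*, a mitochondrial protein that is one of the strongest interferon targets, had 1712, 672 and 1532 TPM in parental and 41, 146 and 509 TPM in Holoclone libraries (log2 fold change −3.05, SE 0.61, adjusted p = 0.00172). *IFI6*, an inhibitor of apoptosis, had 1359, 551 and 1109.5 TPM and 47, 113 and 364 TPM (log2 fold change −2.90, SE 0.55, adjusted p = 0.00102). In both, parental 2 was the lowest parental and Holoclone 3 the highest Holoclone library, with a narrow gap between them, and in a fit of the 6 libraries alone the adjusted p was 0.0756 for *IFI27* and 0.0530 for *IFI6*. *XAF1*, a promoter of apoptosis whose own promoter window held no match, had 89.8, 25.1 and 75.1 TPM and 2.36, 3.36 and 14 TPM (log2 fold change −3.23, SE 0.50, adjusted p = 1.92e-04).

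*IFIT1*, which binds viral RNA and holds 2 matches, had 253, 139.6 and 262 TPM in parental and 35, 78.8 and 145 TPM in Holoclone libraries, the groups overlapping, and did not pass the test (log2 fold change −1.50, SE 0.58, adjusted p = 0.0725). *IFI16*, a sensor of DNA, was the member that rose, from 238, 130.2 and 213 TPM to 231, 371 and 480.2 TPM (log2 fold change 0.88, SE 0.28, adjusted p = 0.0306), lost in 9 of 15 alternatives and without parental 2 (adjusted p = 0.153). No match lay in its promoter window.

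Complement genes followed the same split of parental libraries. Of 17 tested, 0 rose, 10 fell and 7 did not pass the test (median log2 fold change −1.04), and 7 to 10 were lower over the alternatives. The 10 that fell were 58.8% of those tested, against 8.61% of all genes. *C3*, the central component, fell from 518, 346 and 477 TPM to 142, 73 and 84.4 TPM (log2 fold change −2.19, SE 0.23, adjusted p = 3.97e-06), and *CFB*, the protease of the alternative pathway, from 147, 33.2 and 126 TPM to 13.7, 12.8 and 20.9 TPM (log2 fold change −2.39, SE 0.48, adjusted p = 0.00168). The near-identical *C4A* and *C4B*, between which reads cannot be divided with certainty, had 56.1, 6.55 and 60.1 and 33, 3.13 and 31.9 TPM in parental and 1.25, 1.14 and 2.04 and 0.596, 0.708 and 1.37 TPM in Holoclone cells. Parental 2 had the lowest parental value in each of these genes. Of 27 genes of antigen presentation 2 rose, 5 fell and 20 did not pass the test (median log2 fold change 0.06). The class II chaperone *CD74* fell (−1.44, adjusted p = 0.00135). *B2M*, the light chain of class I, had 1551, 1001 and 1359 TPM and 1459.6, 1252 and 1314 TPM and did not pass the test.

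Cytokines were lower more often than higher. Of 33 tested, 3 rose, 10 fell and 20 did not pass the test (median log2 fold change −0.51), with 8 to 14 lower over the alternatives. That is 9.09% higher and 30.3% lower, against 16.1% and 8.61% of all genes. *IL6*, a cytokine of inflammation, went from 21.4, 10.4 and 18.9 TPM to 0.172, 0.206 and 0.174 TPM (log2 fold change −3.86, SE 0.56, adjusted p = 1.11e-04), every Holoclone value under 1 TPM. The alarmin *IL33* fell from 12.3, 6.55 and 14.1 TPM to 1.07, 1.03 and 1.02 TPM (−2.49, adjusted p = 2.49e-06), and *IL32* from 62.3, 50.8 and 58.7 TPM to 9.70, 10.9 and 14.8 TPM (−2.20, adjusted p = 4.38e-04). *IL1A* rose from 154, 153 and 141 TPM to 249, 466 and 483 TPM (1.35, adjusted p = 0.00111), and *TSLP*, an epithelial cytokine, from 0.722, 0.439 and 0.764 TPM to 2.33, 8.92 and 11.3 TPM (2.18, adjusted p = 1.96e-04). *CXCL8* had overlapping groups, with 86.3, 23.6 and 78.1 TPM and 35.9, 38.8 and 23.7 TPM.

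The IGF axis changed in both directions, with 7 of 20 genes higher (35%, against 16.1% of all genes) and 7 lower (35%, against 8.61%). Without parental 1, parental 2 and Holoclone 2, 4, 4 and 4 rose. Its binding proteins carry IGF outside the cell. *IGFBP7* rose from 128, 90.1 and 121 TPM to 322, 464 and 387 TPM (log2 fold change 1.78, SE 0.26, adjusted p = 1.21e-04), and was 2.60, 1.77 and 5.03 TPM in Paraclone cells. *IGFBP6* rose (1.21, adjusted p = 4.68e-04), *IGFBP3* fell from 83, 40.2 and 87.5 TPM to 4.98, 4.32 and 4.51 TPM (log2 fold change −3.59, SE 0.28, adjusted p = 2.56e-07), and *IGFBP5* fell from 4.68, 5.26 and 4.16 TPM to nearly 0 (−2.49, adjusted p = 2.57e-10). *IGF2* itself was below 1 TPM. Of 24 imprinted genes, which are expressed from the maternal or the paternal copy alone, 7 rose, 2 fell and 15 did not pass the test (median log2 fold change 0.21). *MEG3* rose from 0.630, 0.679 and 0.765 TPM to 4.89, 5.76 and 9.04 TPM (2.12, adjusted p = 4.75e-06). *H19*, the neighbour of *IGF2*, fell from 3545, 5095 and 4357 TPM to 2471, 2075 and 2063 TPM (log2 fold change −0.96, SE 0.25, adjusted p = 0.0107). It had no overlap, like 41.2% of all genes tested, and was only 10.2, 23.2 and 13.1 TPM in Paraclone cells. Without parental 2 the adjusted p of *H19* was 0.0504. Of 11 oncofetal RNA-binding and HMGA genes 3 rose, 0 fell and 8 did not pass the test (median log2 fold change 0.22), and *HMGA2*, a chromatin protein of embryonic cells, went from 38.6, 45.2 and 37.2 TPM to 175, 114 and 96.3 TPM (1.61, adjusted p = 2.43e-04).

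Matrix and adhesion genes were called in both directions. Of 32 matrix proteases and inhibitors 11 rose (34.4%, against 16.1% of all genes), 6 fell (18.75%, against 8.61%) and 15 did not pass the test. Their median log2 fold change was −0.08. Without parental 1 and parental 3, 7 and 7 rose, and 10 fell without Holoclone 1. *MMP14*, a collagenase held in the membrane, rose from 70.7, 74.4 and 83.7 TPM to 302, 331 and 329.7 TPM (log2 fold change 2.06, SE 0.27, adjusted p = 5.13e-05), while the secreted *MMP10* fell from 51.1, 15.8 and 71.1 TPM to 6.32, 7.93 and 8.30 TPM (log2 fold change −2.23, SE 0.51, adjusted p = 0.00437). Together with *TIMP3*, *SERPINB2*, an inhibitor of plasminogen activators, rose (2.41, adjusted p = 2.00e-05). Among 25 collagens 4 rose and 6 fell. Those that rose included *COL17A1* of the hemidesmosome, from 60.1, 59.7 and 67.5 TPM to 198, 159.6 and 138 TPM (1.38, adjusted p = 1.12e-05), and *COL4A5* and *COL4A6* of basement membranes (0.94 and 1.88). *COL6A1* and *COL6A2*, which lie side by side and build collagen VI, fell (−1.88 and −2.31).

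Of 26 integrins and laminins 6 rose, 4 fell and 16 did not pass the test (median log2 fold change 0.04), with *LAMA1* higher (1.83, adjusted p = 7.31e-07) and *ITGB6* and *ITGB8* lower (−1.57 and −1.48), both of them subunits that bind latent TGF-beta. Among 19 adhesion molecules of the immunoglobulin kind 6 rose (31.6%) and 2 fell (10.5%). Over all genes, 16.1% were higher and 8.61% lower. *CADM1* rose from 14.1, 11.4 and 14.2 TPM to 80.1, 74.7 and 58.6 TPM (log2 fold change 2.33, SE 0.23, adjusted p = 3.08e-06), *NECTIN1* from 75.4, 81.6 and 75.1 TPM to 262, 247 and 279 TPM (log2 fold change 1.75, SE 0.17, adjusted p = 2.24e-06) and *CNTN1* from 6.52, 10.2 and 6.94 TPM to 58.8, 33.6 and 30.3 TPM (log2 fold change 2.20, SE 0.25, adjusted p = 1.04e-05). The 3 had no overlap between groups, which held for 41.2% of all genes tested. *L1CAM* of the same family moved the other way.

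Among signalling pathways, the ERBB list held 37 tested genes, of which 9 rose, 4 fell and 24 did not pass the test (median log2 fold change 0.27), and 5 rose without parental 1. That is 24.3% higher and 10.8% lower, against 16.1% and 8.61% of all genes. *NRG1*, a ligand of *ERBB3*, rose from 11.4, 11.2 and 13.2 TPM to 36.8, 50.8 and 42.4 TPM (log2 fold change 1.77, SE 0.30, adjusted p = 4.74e-04), and its receptor *ERBB3* fell from 133, 91.4 and 136 TPM to 53.5, 33.9 and 31.7 TPM (log2 fold change −1.59, SE 0.24, adjusted p = 1.83e-04). *EGFR* rose from 17.6, 15.3 and 17.4 TPM to 36.3, 42.2 and 40.6 TPM (log2 fold change 1.19, SE 0.23, adjusted p = 0.00134), and *EPGN*, one of its ligands, fell (−3.06, adjusted p = 9.17e-07). *DUSP6*, a phosphatase that MAPK signalling induces, did not pass the test (0.32, adjusted p = 0.517). *FGFR2* rose from 0.967, 0.661 and 1.21 TPM to 7.90, 5.67 and 5.81 TPM (1.94, adjusted p = 3.11e-07), in a list where 4 of 13 were higher and 1 lower.

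Of 31 targets and factors of YAP and TEAD, which respond to cell shape and contact, 11 rose, 2 fell and 18 did not pass the test (median log2 fold change 0.38). That is 35.5% higher and 6.45% lower, against 16.1% and 8.61% of all genes. *AMOTL1* and *AJUBA*, junction proteins that regulate YAP, rose to 64.4, 52.3 and 53.2 and 85, 109 and 114 TPM from 18.4, 14.4 and 18.8 and 35, 26.3 and 34.1 TPM. The classic targets *CCN1* and *CCN2* did not pass the test (−0.12, adjusted p = 0.862 and 0.41, adjusted p = 0.653), each with overlapping groups. Of 48 genes of the TGF-beta, activin and BMP pathway 5 rose, 10 fell and 33 did not pass the test (median log2 fold change −0.13), and 8 rose without Holoclone 1, and 6 fell without parental 1. Beside *FST*, the ligand *TGFB1* rose (0.87, adjusted p = 0.00122), and the follistatin-like *FSTL3* (−1.82, adjusted p = 1.01e-05) and the inhibitor *SMAD6* (−1.90, adjusted p = 1.72e-04) fell. *SMAD7*, another inhibitor, did not pass the test.

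Of 42 WNT genes 7 rose, 5 fell and 30 did not pass the test (median log2 fold change −0.03), and 8 fell without Holoclone 1. With 16.7% higher and 11.9% lower, the list was near the shares over all genes, 16.1% and 8.61%. *LEF1*, a transcription factor of the pathway, rose from 0.922, 1.09 and 1.07 TPM to 12.9, 8.69 and 4.96 TPM (2.20, adjusted p = 5.11e-06), the ligand *WNT11* fell from 7.44, 8.92 and 10.04 TPM to 0.306, 0.0494 and 0.0606 TPM (−3.10, adjusted p = 2.70e-07), and the target *AXIN2* was under 1 TPM in every Panc89 library. Of 27 Notch genes 4 rose, 3 fell and 20 did not pass the test (median log2 fold change 0.10). These shares, 14.8% and 11.1%, were near those over all genes as well. The ligand *JAG1* rose from 38.6, 34.8 and 46.7 TPM to 72.4, 158 and 174 TPM (1.64, adjusted p = 3.10e-04) and the Notch target *NRARP* fell from 110.3, 80.6 and 95.9 TPM to 62, 37.4 and 32.1 TPM (−1.15, adjusted p = 0.00287). Axon guidance genes, which also shape epithelia, numbered 44, of which 10 rose and 10 fell. *SEMA5A* rose (2.02, adjusted p = 5.28e-05), and the semaphorin receptor *PLXND1* fell (−2.05, adjusted p = 6.46e-05).

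In metabolism, the ATF4 list, which serves amino acid supply under stress, had 31 tested genes, of which 7 rose, 0 fell and 24 did not pass the test (median log2 fold change 0.46), with 28 positive. The list had 22.6% of its members higher, against 16.1% of all genes, and none lower, against 8.61%. Relative to the mean of the 6 libraries its median was −0.21, −0.39 and −0.13 in parental 1 to 3 and −0.21, 0.46 and 0.76 in Holoclone 1 to 3, so that Holoclone 1 lay among the parental libraries. Without Holoclone 1 11 members rose, and without parental 3 or Holoclone 3 4 did. None fell, also at an unadjusted p under 0.05. *SLC7A5* and *SLC3A2*, the 2 chains of the large amino acid transporter, rose from 1109, 1328 and 1048 and 715, 931 and 824 TPM to 2518, 2818 and 2854 and 1485, 2275 and 2553 TPM (1.24, adjusted p = 6.83e-05 and 1.32, adjusted p = 0.00103). *ASNS* and *PHGDH*, enzymes of asparagine and serine synthesis, did not pass the test (0.94, adjusted p = 0.0821 and 0.47, adjusted p = 0.46).

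Cholesterol genes showed the reverse pattern over the Holoclone libraries. Of 25 tested, 0 rose, 5 fell and 20 did not pass the test (median log2 fold change −0.43), with 11 lower without Holoclone 1, 1 without Holoclone 3 and 2 or 3 without any other library. The share lower was 20%, against 8.61% of all genes, and none were higher, against 16.1%. *INSIG1*, a brake on sterol synthesis that sterol shortage induces, fell from 51.4, 58.2 and 55.9 TPM to 32.9, 13.9 and 11.2 TPM (−1.61, adjusted p = 0.00678). Of 19 fatty acid genes 2 rose, 3 fell and 14 did not pass the test (median log2 fold change −0.03), and 5 fell without Holoclone 1, and *ACSS2*, which makes acetyl-CoA from acetate, fell from 119.5, 163 and 122 TPM to 45.8, 32.1 and 27.5 TPM (−1.93, adjusted p = 0.00108).

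Of 25 hypoxia targets 1 rose, 8 fell and 16 did not pass the test (median log2 fold change −0.19), and 5, 4, 4, 4 and 5 fell without parental 1, parental 2, parental 3, Holoclone 2 and Holoclone 3. That is 4% higher and 32% lower, against 16.1% and 8.61% of all genes. *CA9*, a carbonic anhydrase of hypoxic tumors, fell from 4.30, 7.21 and 5.57 TPM to 0.582, 0.649 and 0.654 TPM (−2.02, adjusted p = 2.49e-04), *ADM* rose (1.35, adjusted p = 0.00121), and *VEGFA*, at 314, 662 and 939 TPM in Holoclone 1 to 3, did not pass the test. Of 25 glycolysis genes 4 rose, 3 fell and 18 did not pass the test (median log2 fold change −0.13), and 5 fell without Holoclone 1. These shares, 16% and 12%, were near those over all genes. The hexokinases *HK1* (0.94, adjusted p = 1.47e-04) and *HK2* (0.85, adjusted p = 0.00147) rose, as did the lactate carrier *SLC16A1* (0.88, adjusted p = 7.25e-04), whereas the lactate exporter *SLC16A3* fell from 601, 731 and 575 TPM to 294, 276 and 291 TPM (−1.14, adjusted p = 8.18e-04).

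Enzymes that handle aldehydes and foreign compounds were called in both directions. *ALDH3A1* rose from 209.9, 282 and 267 TPM to 1115, 1257 and 897 TPM (log2 fold change 2.10, SE 0.33, adjusted p = 2.01e-04) and was 4.44, 14.1 and 19.6 TPM in Paraclone cells. *UGT1A6*, which shares exons with its neighbours of the UGT1A locus, rose from 0.722, 0.730 and 0.799 TPM to 10.02, 6.73 and 8.06 TPM (log2 fold change 2.39, SE 0.12, adjusted p = 1.90e-09). The aryl hydrocarbon receptor *AHR* and its target *CYP1A1* did not pass the test (−0.36, adjusted p = 0.237 and −0.01, adjusted p = 0.99), and *CYP1B1* fell (−1.16, adjusted p = 0.00128). Of 35 NRF2 targets 7 rose, 3 fell and 25 did not pass the test (median log2 fold change 0.29), and 4 and 4 rose without parental 3 and Holoclone 3. With 20% higher and 8.57% lower, the list was near the shares over all genes, 16.1% and 8.61%. *FTH1*, the heavy chain of ferritin, an abundant transcript whose pseudogenes may share its reads, fell from 18632, 26859 and 19731 TPM to 5285, 6933 and 8904 TPM (log2 fold change −1.64, SE 0.29, adjusted p = 6.79e-04), while *GPX2* rose from 14.2, 20.7 and 12.4 TPM to 53.1, 44.7 and 63.1 TPM (1.72, adjusted p = 3.63e-06). *NQO1*, the best known NRF2 target, did not pass the test (0.61, adjusted p = 0.137). None of 6 metallothioneins passed the test by limma, also at an unadjusted p under 0.05. Of 17 aldehyde dehydrogenases 3 rose, 2 fell and 12 did not pass the test (median log2 fold change −0.08).

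Among genes of gemcitabine handling, the nucleoside drug of PDAC, 2 of 27 rose and 3 fell. Over all genes, 16.1% were higher and 8.61% lower, which is the background for each list of this paragraph. *CDA*, the deaminase that inactivates the drug, fell from 77, 124 and 77.2 TPM to 27, 16.2 and 10.8 TPM (log2 fold change −2.36, SE 0.25, adjusted p = 5.46e-06), and the carrier *SLC28A3* fell from 12, 3.01 and 11.9 TPM to 0.180, 0.0290 and 0.0640 TPM (log2 fold change −3.01, SE 0.35, adjusted p = 1.35e-05). The carrier *SLC29A1* and the activating kinase *DCK* did not pass the test (0.86, adjusted p = 0.133 and 0.10, adjusted p = 0.884). Of 24 p53 targets 8 rose (33.3%, against 16.1% of all genes), 1 fell and 15 did not pass the test. Their median log2 fold change was 0.41, and 5 rose without parental 2. *MDM2*, which degrades p53, rose from 56, 51.1 and 62.6 TPM to 109.8, 129 and 137 TPM (log2 fold change 1.13, SE 0.14, adjusted p = 2.81e-05), and *CDKN1A*, an inhibitor of the cell cycle, had 37.4, 37.5 and 35.3 TPM and 47.9, 76.7 and 105 TPM, higher in each Holoclone library but not past the test (0.97, adjusted p = 0.109). Such separation held for 41.2% of all genes tested. *CCND2*, a cyclin of the G1 phase, rose from 3.84, 3.24 and 3.64 TPM to 25.6, 30.8 and 41 TPM (log2 fold change 2.85, SE 0.22, adjusted p = 2.27e-07), in a list where 5 of 23 rose and none fell (3 at an unadjusted p under 0.05), and 3 rose without parental 1, and 5 fell without Holoclone 1. None of 43 S phase and 54 G2/M genes passed the test by limma, and 1 and 2 were higher and none lower at an unadjusted p under 0.05. In the *BCL2* family 4 of 21 rose, among them *BIK* (1.35, adjusted p = 3.33e-06), and 3 fell, namely *BOK*, *BMF* and *BCL2L11*.

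Among HOX genes 7 of 30 rose and 4 fell, and 4 and 4 rose without parental 2 and Holoclone 1. *HOXB9* of the HOXB cluster was higher (2.29, adjusted p = 0.00149) and *HOXC13* of the HOXC cluster lower (−0.73, adjusted p = 0.00209). Of 25 ABC transporters 5 rose and 2 fell, and 6 fell without Holoclone 1. These counts were close to the shares over all genes, 16.1% higher and 8.61% lower. *ABCC3*, which exports conjugates, fell from 34.7, 36.2 and 34.1 TPM to 13.7, 12.2 and 21.4 TPM. Of 81 ribosomal proteins 4 rose (4.94%, against 16.1% of all genes) and 17 fell (20.99%, against 8.61%), with 71 negative, and 8, 8, 10 and 9 fell without parental 1, parental 3, Holoclone 1 and Holoclone 3. In a fit of the 9 Panc89 libraries 4 fell. *RPS21* fell from 2245, 2079 and 2225 TPM to 953, 1047 and 1116 TPM (−1.07, adjusted p = 1.72e-06). Of 75 subunits of oxidative phosphorylation 7 rose and 5 fell, and 3, 2, 1, 21, 2 and 2 fell without parental 1, parental 2, parental 3, Holoclone 1, Holoclone 2 and Holoclone 3. Of 12 claudins 2 rose, 3 fell and 7 did not pass the test (median log2 fold change 0.14), and of 11 clustered protocadherins 1 rose, *PCDHAC2*, whose exons are shared with others of its cluster.

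Replication-dependent histones had the largest share of falling members of the lists. Of 41 tested, 0 rose, 26 fell and 15 did not pass the test (median log2 fold change −1.04), which is 63.4% against 8.61% of all genes, and 39 had a negative fold change. Their summed level was 2524, 1636 and 2179 TPM in parental, 862, 627 and 769.5 TPM in Holoclone and 2148, 1615 and 1918 TPM in Paraclone libraries. All 3 Holoclone libraries were below every other Panc89 library, including Holoclone 1 with its high S phase genes. *H2BC4* fell from 87.2, 44.9 and 81 TPM to 15, 8.48 and 11.3 TPM (log2 fold change −2.49, SE 0.29, adjusted p = 1.16e-05), *H2AC8* from 39.9, 36.7 and 36.5 TPM to 12.5, 5.02 and 5.53 TPM (log2 fold change −2.26, SE 0.28, adjusted p = 2.12e-05) and *H2AC19* from 349.9, 193 and 296 TPM to 50.7, 51.6 and 68.8 TPM (log2 fold change −2.24, SE 0.37, adjusted p = 3.34e-04). Most mRNAs of these genes lack a poly-A tail, and the libraries were made from poly-A RNA, so the values may cover a part of histone mRNA only. Near-identical copies may share reads. At an unadjusted p under 0.05 in limma, 0 histones were higher and 31 lower, and for complement genes these counts were 0 and 11, for cholesterol genes 0 and 9, for oncofetal and HMGA genes 3 and 0 and for clustered protocadherins 1 and 1. Between 17 and 29 members were lower over the alternatives, and 16 passed the test of the difference between Panc89 and Panc1.

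Genes that changed were not spread evenly over the chromosomes. This description was made after the values were seen and carries no test. On chromosome 16 37.5% of the genes tested were higher, on chromosome 11 33.6% and on chromosome 22 29.2%, and on the others 6.90 to 20.8%. Each of these chromosomes had a stretch that was higher and a stretch that was not. On chromosome 16 from 10 Mb onward 264 of 547 genes were higher (48.3%, median log2 fold change 0.54), against 10 of 184 before 10 Mb (5.43%, median −0.11). On chromosome 11 the first 110 Mb had 283 of 743 higher (38.1%, median 0.37), and the rest 18 of 152 (11.8%, median −0.01). On chromosome 22 the first 40 Mb had 95 of 243 higher (39.1%, median 0.42), and the rest 12 of 124 (9.68%, median −0.05). The limits were set by eye in steps of 10 Mb, in GRCh38 positions.

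The shift was present in each Holoclone passage. Over chromosome 16 from 10 Mb onward the median deviation from the parental mean was 0.67, 0.44 and 0.45 in Holoclone 1 to 3, 0.01, −0.05 and 0.04 in parental 1 to 3, and −0.03, 0.01 and −0.08 in Paraclone 1 to 3. Over all genes with a position it was 0.20, 0.01 and 0.01 in Holoclone 1 to 3, so Holoclone 1 was raised in general. The 3 stretches together held 1533 genes, of which 642 were higher (41.9%), and 25.0% of all higher genes with a position. Outside them 1921 of 14342 genes were higher (13.4%) and 1305 lower (9.10%), with a median of 0.05. Genes named above lie in these stretches, among them *TIMP3* on chromosome 22, *SLC3A2*, *FTH1*, *H19* and *MUC5B* on chromosome 11, and *SLC7A5* and *CDH11* on chromosome 16, and they moved in both directions. Among genes named ZNF, which code for zinc fingers, 20 of 38 on these 3 chromosomes were higher and 1 lower, against 37 and 15 of 418 elsewhere. Over all genes, 34.2% were higher and 5.87% lower on these chromosomes, and 13.5% and 9.03% elsewhere. Of all ZNF genes, 10 and 32 fell without parental 3 and Holoclone 1.

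Stretches of lower genes were shorter. Beyond 140 Mb on chromosome 8, 37 of 96 genes were lower and none higher (median −0.39). On chromosome 6 before 10 Mb 17 of 49 were lower and none higher (median −0.36). On chromosome 21 from 40 Mb 24 of 74 were lower and 1 higher (median −0.29). Paraclone 1 to 3 were also below the parental mean on chromosome 8, with median deviations of −0.20, −0.30 and −0.24 beyond 140 Mb. Before 140 Mb they had −0.26, −0.16 and −0.28. Their values were 0.21, 0.11 and 0.15 in the stretch of chromosome 6 and 0.002, −0.001 and −0.12 in that of chromosome 21. Over 15402 windows of 20 neighbouring genes, 5% had a median log2 fold change under −0.18 and 5% one over 0.48. The lowest window held 20 genes between *H3C2* and *H4C8* in the histone cluster of chromosome 6 (26031589 to 26285638), with 14 lower, none higher and a median of −1.58. The window from *SLC45A4* to *GLI4* on chromosome 8, which holds the LY6 genes *PSCA* and *LYPD2*, had 16 of 20 lower and a median of −1.41. The highest was on chromosome 16 from *CMIP* to *USP10* (81444808 to 84779922), with 16 of 20 higher and a median of 1.01. Neighbouring windows overlap, and the cause of the shared direction was not tested.

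**Figure D4:**
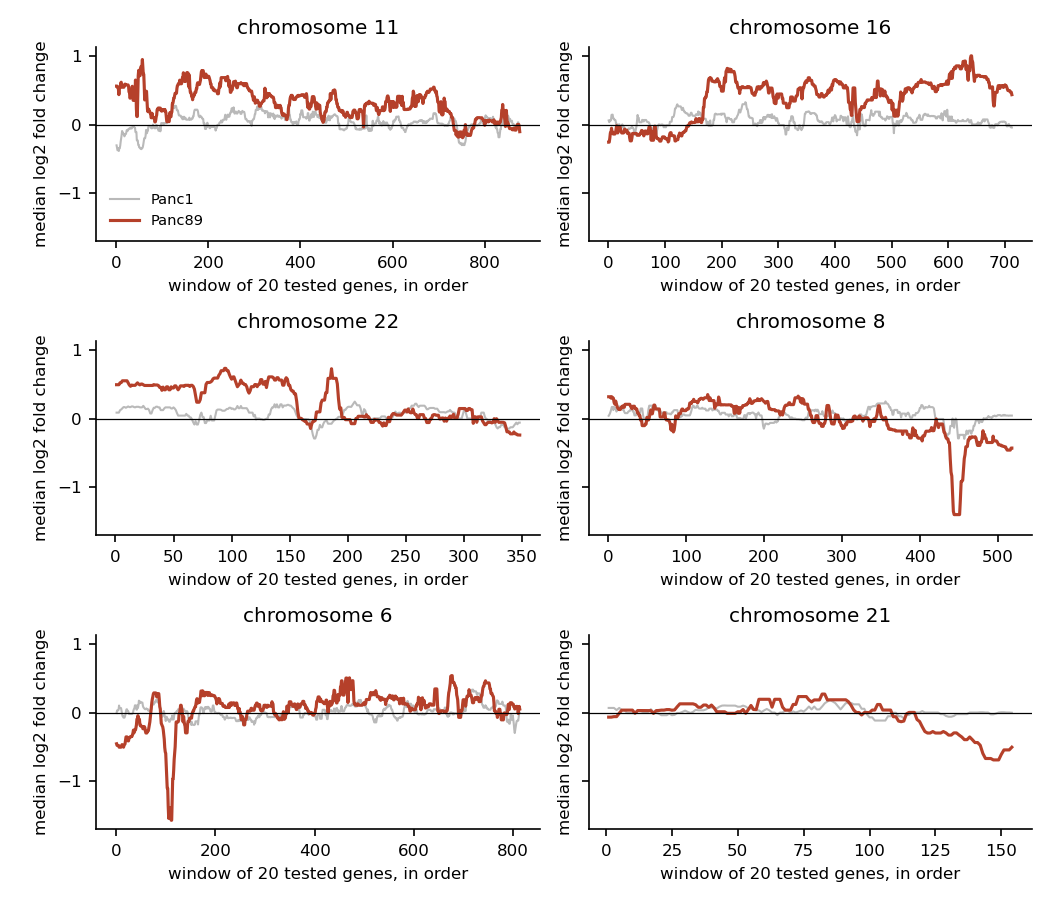
Each line gives the median log2 fold change of Holoclone against parental cells in windows of 20 neighbouring tested genes, in genome order along 6 chromosomes, for Panc89 (red) and Panc1 (grey). The Panc89 line runs above 0 over most of chromosomes 11 and 16 and the start of 22 and dips at the end of chromosome 8, and the Panc1 line is at −0.34 where Panc89 is at 0.95, in the window from *SYT8* to *CARS1* on chromosome 11.

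The same contrast in Panc1 was set beside that of Panc89. In Panc1, 1759 genes differed between Holoclone and parental cells (10.9%), 945 higher and 814 lower. Both lines called 496 genes. This is 12.5% of the Panc89 calls, where 10.9% of all genes were called in Panc1. It is 28.2% of the Panc1 calls, where 24.7% of all genes were called in Panc89. Both were close to the shares over all genes. Of them 197 were higher in both, 104 lower in both and 195 opposite. A test of the difference between the lines, the interaction of line and variant, called 3013 genes (18.7%), 1759 with the more positive change in Panc89 and 1254 with the more negative one. Of the 3981 genes called in Panc89, 2046 passed this test of the difference. They were picked on the Panc89 change, which is part of the difference, so this count carries no weight of its own. All 195 opposite genes passed it as well. Called changes of opposite sign add up in the difference, so this outcome followed from how the genes were picked.

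Genes that passed the test in the same direction in both lines included *IGFBP7*, *S100A4*, *CCND2*, *CDH11*, *ALPG*, *ATP6V1B1*, *CSGALNACT1*, *COL1A1* and the IGF-binding protein *IGFBP2*. *ATP6V1B1* was near 0 in Panc1, with means of 0.945 TPM in parental and 0.00573 TPM in Holoclone cells. *COL1A1* passed narrowly by limma, with an adjusted p of 0.0292 in Panc89 and 0.0475 in Panc1. In a fit of the 6 Panc89 libraries alone its adjusted p was 0.163. The log2 fold change of *IGFBP7* was 1.78 in Panc89 and 4.47 in Panc1, a difference that passed the test (adjusted p = 1.17e-04). *S100A4* fell by similar amounts, with −2.61 and −2.05 (adjusted p of the difference = 0.267). *IGFBP2* had −1.41 and −3.21, and *CCND2* 2.85 and 1.27. *CDH11* rose by 1.83 in Panc89 and 1.82 in Panc1 (adjusted p of the difference = 0.991).

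*CADM1*, *MMP14* and *HK2* passed the test in opposite directions in the 2 lines. *CADM1* had 13.2 ± 1.58 TPM (SD, n = 3) in Panc89 parental and 71.1 ± 11.2 TPM in Panc89 Holoclone cells, but 32.1 ± 10.4 TPM in Panc1 parental and 3.29 ± 1.12 TPM in Panc1 Holoclone cells, a difference of 5.26 (SE 0.33, adjusted p = 4.86e-08). *THBD*, thrombomodulin, rose in Panc89 from 14.2, 14.5 and 14.1 TPM to 74.6, 132 and 152 TPM and had a log2 fold change of −1.94 in Panc1 (adjusted p = 0.0716), with a difference of 4.86 (adjusted p = 0.00161). *MMP14* had a log2 fold change of 2.06 in Panc89 and −0.95 in Panc1 (adjusted p of the difference = 6.42e-05), and *HK2* had 0.85 and −0.95 (adjusted p of the difference = 7.73e-05).

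**Figure D5:**
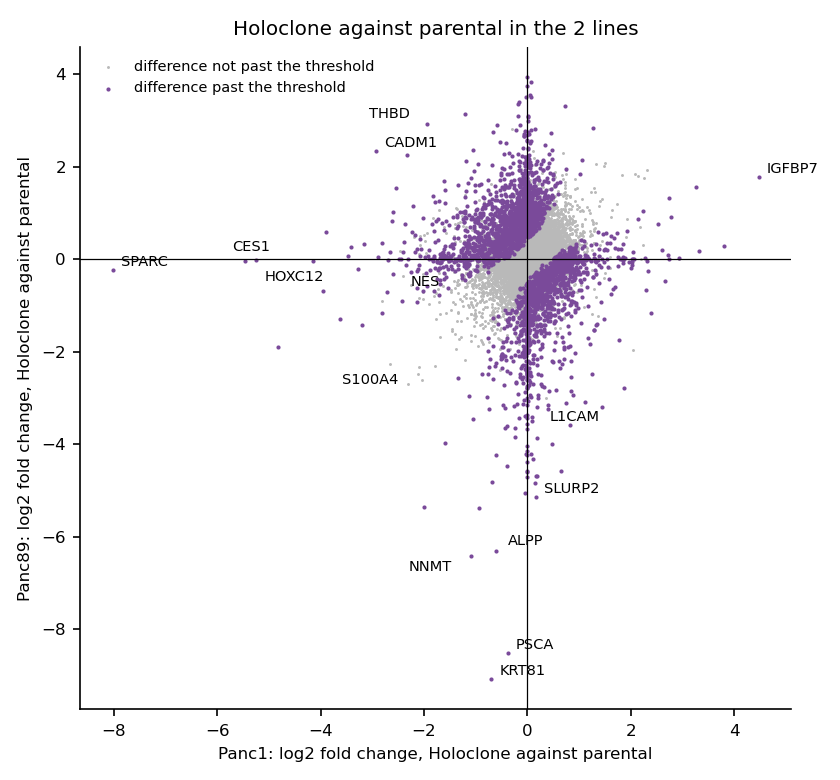
Each point is a gene, with its log2 fold change of Holoclone against parental cells in Panc1 on the x axis and in Panc89 on the y axis. Purple points (3013) passed the test of the difference between the lines, with *KRT81* and *PSCA* far down at a Panc1 change near 0 and *SPARC* far left at a Panc89 change near 0, and *IGFBP7* lies high in both.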

How the data were processed

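RNA was measured in 18 libraries of 6 cell variants, 3 passages each, prepared from poly-A mRNA with a stranded kit. The authors quantified the reads with kallisto 0.46.1 against Ensembl transcripts of GRCh38 and summarised them to genes from scaled TPM values with tximport. They deposited log2 values, log2(TPM + 1), for 40266 gene symbols. No counts were given, so the depth is unknown and no count test was used. TPM in the text is 2 to the power of that value, minus 1. Groups came from the labels. Genes at 1 TPM or more in 3 or more libraries (16093) were fitted with limma 3.58.1 (limma-trend, R 4.3.3), with 6 group means over all 18 libraries, which share 1 estimate of the spread. The contrasts were Panc89 Holoclone minus parental, the same in Panc1, and their difference. Adjusted p is limma's moderated test, two-sided, with Benjamini-Hochberg adjustment over all genes tested, and SE is its standard error. The fit was tested on simulated data first.

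Named genes were the study's markers, the 12 genes with the highest and the 12 with the lowest log2 fold change (past the threshold, 10 TPM or more in the higher group, no overlap), up to 3 called members of each list in each direction and the first 2 written members of each list, and the 5 largest differences between lines each way. A few genes that this rule names are not reported here. The 52 lists were written from textbook knowledge, gene name prefixes or Seurat 5.3.0 (S and G2/M phase). The members and lists were chosen with earlier results of these data known. Positions came from GENCODE (GRCh38) by symbol and promoters from RefSeq (GRCh38.p14). The alternatives were a pseudocount of 0.1, other filters, fits of 6 or 9 libraries, a replicate block, 2 other scalings, no mitochondrially encoded genes, 2 stricter thresholds, and leaving out each of the 6 libraries.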

Additional observations from a re-analysis of the deposited data

Results flagged for a closer look

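The change from parental to Holoclone cells differed between Panc89 and Panc1 in 3013 genes by limma's test of the difference itself, with Benjamini-Hochberg adjustment. The largest differences in which Panc89 had the more positive change were those of *SPARC* (7.78), *CES1* (5.42), *CADM1* (5.26), *HOXC12* (5.24) and *THBD* (4.86), on the log2 scale, as Panc89 minus Panc1. *SPARC*, *CES1* and *HOXC12* stayed under 1 TPM in all parental and Holoclone libraries of Panc89, so these 3 differences come from Panc1, where *SPARC* had 888 ± 247 TPM (SD, n = 3) in parental and 2.36 ± 0.572 TPM in Holoclone cells, *CES1* 55.6 ± 12.5 and 0.265 ± 0.146 TPM and *HOXC12* 46.9 ± 4.83 and 0.258 ± 0.120 TPM. The largest differences in the other direction were those of *KRT81* (−8.38), *PSCA* (−8.12), *ALPP* (−5.69), *NNMT* (−5.33) and *SLURP2* (−5.30). Parental Panc1 cells had 2.00 ± 0.759 TPM of *KRT81* and 10.4 ± 4.59 TPM of *NNMT*. Among the study's markers, the change differed between the lines for *NES* (1.96), *OVOL2* (−1.70), *L1CAM* (−3.37) and *VIM* (0.69). *NES* and *VIM* were under 2 TPM in every parental and Holoclone library of Panc89 and did not pass the test there. Their differences come mainly from Panc1, where both were lower in Holoclone than in parental cells. For *VIM* the Panc1 log2 fold change was −0.62 (adjusted p = 0.0147 by limma).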

How the results depend on the processing

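The 3981 genes became 2364 at an adjusted p of 0.01 (1504 higher, 860 lower) and 1369 with a log2 fold change over 1 (753 higher, 616 lower), and the 3013 differences between lines became 1679 and 1743. These rules are stricter by construction. Leaving out 1 library gave 2972 to 4319 genes (1926 to 2447 higher, 971 to 1872 lower) and 2367 to 3419 differences, with 4319 without Holoclone 1 and 3201 without parental 2. Upper quartile scaling gave 1930 higher and 1894 lower genes (50.5% higher, against 65.2%) and median-of-ratios scaling 1965 and 1886 (51.0%). A fit of the 6 libraries gave 3296 genes and of the 9 Panc89 libraries 3034. Of 254 named genes past the threshold, 188 stayed past it and all 254 kept their direction under each of the 15 alternatives that refit them. The cause of the losses was not tested. In 23 of 52 lists, leaving out 1 library moved a count of 5 or more by over 1.5 times, as given beside each. The depth limits what can be said of genes near 0 TPM.

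The replicate numbers did not pair the libraries. Deviations of same-numbered Panc89 libraries from their group means correlated with r of −0.12, 0.01 and 0.05 for numbers 1 to 3, against a mean of 0.01 for different numbers. With the replicate block 3408 genes passed (2192 higher, 1216 lower) and 2478 differences between lines.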
